A study of Mus musculus with 9 samples.

Results

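The genes described here are 10 genes of interstitial collagen and fibroblast matrix: the chains of collagens I, III and V (Col1a1, Col1a2, Col3a1, Col5a1, Col5a2), the glycoproteins osteonectin (Sparc), fibronectin (Fn1) and periostin (Postn), the cross-linking enzyme lysyl oxidase (Lox) and the proteoglycan biglycan (Bgn). They were taken by symbol from a count table of 52550 mouse genes, and 10 of 10 were found. The table held 9 libraries from micromass cultures, dense drops of cells from forelimbs of mouse embryos at embryonic day 12, labelled as chondroblasts. For 6 days 3 cultures received the vehicle DMSO, 3 the caspase inhibitor Z-VAD-FMK (FMK) at 100 µM and 3 the caspase inhibitor Q-VD-OPH (OPH) at 100 µM. All groups shared a medium for cartilage formation with serum, glycerol phosphate and ascorbic acid, renewed every 2 days. Strain, sex and the pooling of embryos were not given in the sources used here. The labels call the cultures biological replicates without saying what kept them separate, so p-values set differences against the spread between these samples only. Both compounds are peptide-based inhibitors of many caspases. They differ in the group that reacts with the enzyme, a fluoromethyl ketone in FMK and a difluorophenoxymethyl ketone in OPH, and in the peptide.

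Fibril-forming collagens are made as procollagen chains that fold into a triple helix in the endoplasmic reticulum, are trimmed outside the cell and assemble into fibrils. Collagen I, encoded by Col1a1 and Col1a2, is the bulk collagen of skin, tendon and bone, collagen III (Col3a1) joins it in soft tissue, and collagen V (Col5a1, Col5a2) starts fibrils and limits their width. Lysyl oxidase cross-links them, while fibronectin, osteonectin, periostin and biglycan bind collagen or guide its assembly. In the limb collagen I marks the tissue around cartilage, and cells that become cartilage make collagen II in its place.

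With OPH, 6 of the 10 genes fell against DMSO (Col1a1, Col1a2, Col5a1, Sparc, Postn and Lox), and 8 were lower than with FMK. With FMK against DMSO, Col5a2 and Bgn rose, Postn fell and 7 did not pass the test. The changes were small, the largest of the 30 being a log2 difference of -0.63 ± 0.12 for Col3a1 between OPH and FMK. Of all genes tested, 16.7% were called with OPH against DMSO (8.6% higher and 8.11% lower), 20.5% with FMK against DMSO (10.4% and 10.1%) and 8.86% between OPH and FMK (4.2% and 4.66%). The 2 higher and 1 lower of 10 with FMK were thus near the share over all genes. None of the 10 was called higher with OPH, against DMSO or FMK, by edgeR, DESeq2 or limma-voom, and at an unadjusted p under 0.05 in edgeR the count was 0 too.

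Libraries held 5659789 to 6867350 counts, each from the 3' end of a transcript, so that levels of different genes can be compared without a correction for length. Levels are in CPM, counts relative to the library total after TMM scaling, which sets the bulk of genes equal between libraries. Tests are edgeR's quasi-likelihood F test over 13255 genes, two-sided, with Benjamini-Hochberg adjustment and a threshold of 0.05, and ± after a log2 fold change is its standard error. The cartilage label was checked on 12 markers, of which 11 were in the table and had counts in every group, summing to 2791 to 4153 CPM with DMSO. Col2a1, the main cartilage collagen, stood at 1333 ± 301 CPM there (SD, n = 3), against 11742 ± 1325 for Col1a1. The 10 osteoblast markers summed to 28.3 to 51.3 CPM over the 9 libraries, and Bglap and Bglap2, which encode osteocalcin, had 0 counts with DMSO and FMK. Libraries numbered 3 stood apart in each group: with DMSO, adipocyte markers summed to 477 CPM in library 3 against 2422 and 2125, and skeletal muscle markers to 852 against 233 and 329.8. Without the libraries numbered 3, 4 of the 10 genes were higher and 1 lower with FMK, 6 were lower with OPH against DMSO and 7 against FMK. The share of all genes called in that fit is not given here, so these counts cannot be set against it.

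Col1a1, Col1a2 and Sparc were the most abundant of the 10, ranks 2, 4 and 6 of all genes by summed counts with DMSO. The lowest was Postn at 352 ± 29.9 CPM, rank 370. The order with DMSO was Col1a1, Col1a2, Sparc, Bgn, Col3a1, Lox, Fn1, Col5a2, Col5a1 and Postn. Neighbours in that order did not overlap between libraries, except Lox with Fn1 and Fn1 with Col5a2. With OPH, Lox stood below Col5a2, at 899 ± 34.2 against 1016 ± 7.59 CPM. Together the 10 genes held 3.875%, 3.933% and 4.182% of all counts in DMSO libraries 1 to 3, 3.991%, 3.774% and 3.905% with FMK and 3.209%, 3.254% and 3.213% with OPH. Each OPH share lay below that of the other 6 libraries. This share leaves out the TMM factors but is itself a scaling by library totals. The order of FMK and DMSO depended on that choice. The mean share was 3.89% with FMK and 3.997% with DMSO, while the mean summed level was 40819 and 39126 CPM. OPH was lowest by both, at 3.225% and 31397 CPM.

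**Figure D1:**
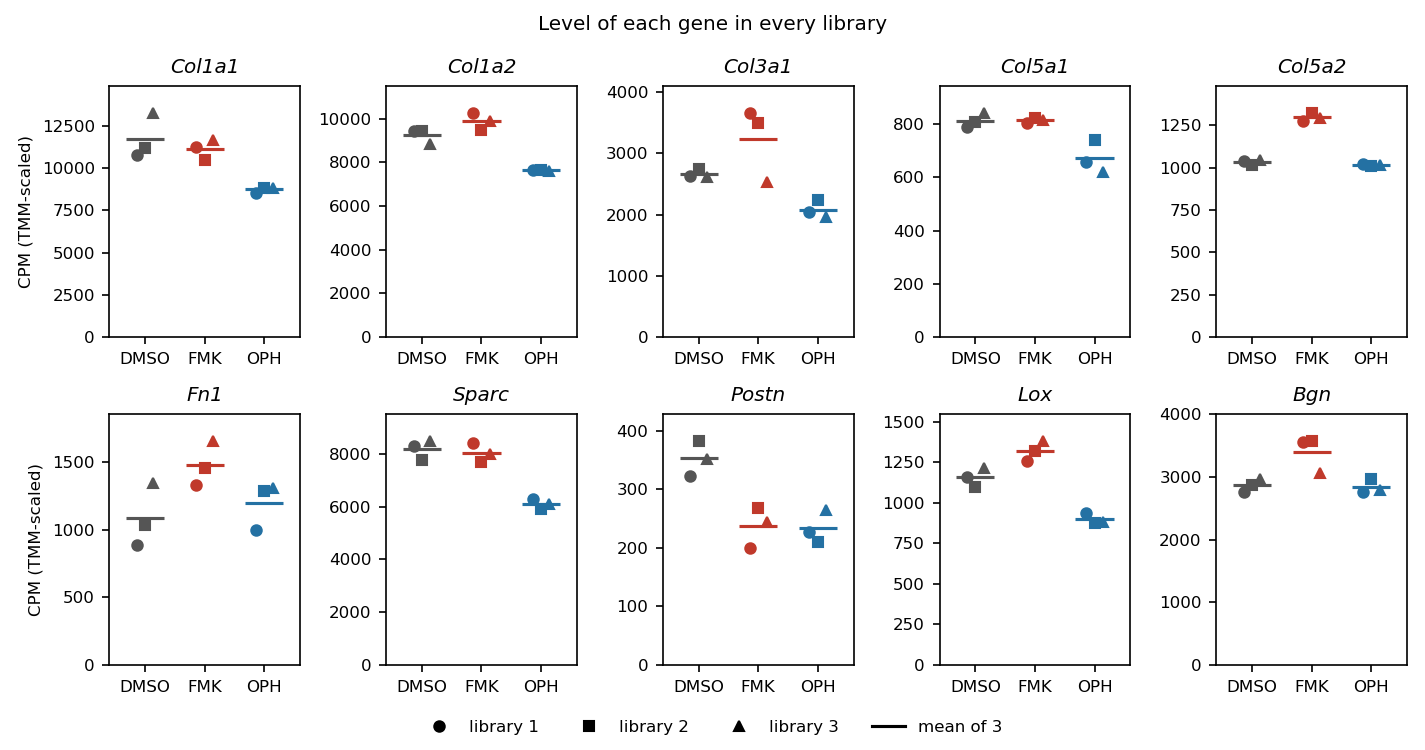
Level of each of the 10 genes in CPM (vertical axis, linear, from 0) in the 9 libraries, grouped by treatment, with the marker shape giving the library number and the line the mean of 3. For Col1a1, Col1a2, Col3a1, Col5a1, Sparc and Lox the OPH libraries lie below all DMSO and FMK libraries, while for Postn the libraries of both inhibitors lie below DMSO.

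Sequence before the start was at hand for 6 of the 10 genes, from RefSeq on GRCm38.p6, and not for Col1a1, Col5a2, Fn1 and Lox. The 4 shown cover genes that moved differently: Col5a1 (lower with OPH), Postn (lower with both inhibitors), Bgn (higher with FMK) and Col3a1 (lower with OPH than with FMK). Each run is the 250 bases before the start, 5′ to 3′ on the gene's strand, and for Postn the second of 2 listed starts was taken. Capitals mark matches on either strand to the CCAAT box (CCAAT), the TATA box (TATAAA), the GC box of SP1 (GGGCGG), the AP-1 site (TGANTCA), the TEAD site (GGAATG) or the core of the interferon-stimulated response element.
Col5a1, chr2:27886175-27886424, plus strand: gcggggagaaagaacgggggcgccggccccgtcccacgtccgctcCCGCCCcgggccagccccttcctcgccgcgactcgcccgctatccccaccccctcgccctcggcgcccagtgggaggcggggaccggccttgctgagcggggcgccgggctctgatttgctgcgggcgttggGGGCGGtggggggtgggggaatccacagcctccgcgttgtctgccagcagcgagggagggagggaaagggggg
Postn, chr3:54360857-54361106, plus strand: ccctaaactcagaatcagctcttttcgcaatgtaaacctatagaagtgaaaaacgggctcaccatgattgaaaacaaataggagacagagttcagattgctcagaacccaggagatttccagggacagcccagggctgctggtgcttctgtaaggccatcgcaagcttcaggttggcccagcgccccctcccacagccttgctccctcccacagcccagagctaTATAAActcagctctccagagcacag
Bgn, chrX:73483351-73483600, plus strand: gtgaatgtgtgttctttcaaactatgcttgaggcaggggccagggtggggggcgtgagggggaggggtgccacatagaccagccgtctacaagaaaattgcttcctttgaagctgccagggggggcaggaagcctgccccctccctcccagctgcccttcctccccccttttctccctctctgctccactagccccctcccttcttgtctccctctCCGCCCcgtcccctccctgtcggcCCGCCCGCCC
Col3a1, chr1:45311288-45311537, plus strand: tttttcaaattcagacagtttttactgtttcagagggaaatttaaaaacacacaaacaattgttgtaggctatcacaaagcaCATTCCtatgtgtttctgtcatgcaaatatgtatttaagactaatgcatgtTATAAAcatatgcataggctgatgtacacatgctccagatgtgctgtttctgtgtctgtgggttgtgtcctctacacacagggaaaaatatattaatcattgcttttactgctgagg
Col5a1 held 2 GC boxes and Bgn 3, of which those beginning 10 and 6 bases before the start overlap each other. Of all 32851 windows of that length 32.7% held a GC box. Postn had a match to the TATA letters beginning 26 bases before the start. The window of its first listed start, not shown, held none of these motifs. Col3a1 had a match to the TATA letters at 117 bases and a TEAD match at 168. Of all windows, 12.4% held the TATA letters and 12.6% the TEAD site. CCAAT was in 33.8% of all windows, the AP-1 letters in 6.75% and the interferon core in 2.98%, and none of these was in the 4 windows shown. G and C made up 76.4% of the Col5a1 window, 64.4% of Bgn, 52% of Postn and 35.2% of Col3a1.

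Both collagen I genes fell with OPH. Col1a1 (ENSMUSG00000001506, chromosome 11, 94936224 to 94953042, plus strand, all positions on GRCm38) stood at 10794, 11177 and 13255 CPM in DMSO libraries 1 to 3, at 11221, 10489.5 and 11673 with FMK and at 8549, 8821 and 8820.0 with OPH. The OPH libraries were below all others, and DMSO library 3 was above the rest. Its log2 fold change with OPH against DMSO was -0.43 ± 0.07 (edgeR adjusted p = 0.000398). For Col1a2 (ENSMUSG00000029661, chromosome 6, 4504814 to 4541544, plus strand) the values were 9423, 9422 and 8831 CPM with DMSO, 10258, 9482 and 9884 with FMK and 7643, 7647 and 7603 with OPH. The OPH libraries were again the lowest, and every FMK library was above every DMSO library. With OPH the log2 fold change was -0.27 ± 0.06 (edgeR adjusted p = 0.00244). With FMK neither chain passed, at -0.08 for Col1a1 (95% interval -0.23 to 0.07) and 0.10 for Col1a2 (-0.02 to 0.22).

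Col3a1 and Col5a2 lie on chromosome 1 with their 3' ends facing, 24614 bases apart. Col3a1 (ENSMUSG00000026043, chromosome 1, 45311538 to 45349706, plus strand) had 2633, 2742 and 2613 CPM with DMSO, 3658, 3501 and 2531 with FMK and 2048, 2235 and 1959 with OPH. FMK libraries 1 and 2 were the highest of all, FMK library 3 lay below every DMSO library, and every OPH library was lower still. The log2 fold change with FMK was 0.28 ± 0.11 (edgeR adjusted p = 0.119, 0.014 with replicate number as block, 0.000395 without FMK library 3). With OPH against DMSO it was -0.36 ± 0.12 (edgeR adjusted p = 0.0571, 0.00152 with the block). Smooth muscle markers summed to 3763 CPM in FMK library 3, against 1541 and 1701 in FMK libraries 1 and 2, and their part in the Col3a1 level was not tested.

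Of the collagen V chains, Col5a2 rose with FMK and Col5a1 fell with OPH. Col5a2 (ENSMUSG00000026042, chromosome 1, 45374321 to 45503282, minus strand) stood at 1041, 1018 and 1045 CPM with DMSO, 1275, 1324 and 1296 with FMK and 1024, 1008 and 1015 with OPH. All FMK libraries were higher than all others, and DMSO and OPH overlapped. Its log2 fold change with FMK was 0.33 ± 0.06 (edgeR adjusted p = 0.000976) and with OPH -0.03 (95% interval -0.16 to 0.10). Col5a1 (ENSMUSG00000026837, chromosome 2, 27886425 to 28039514, plus strand) had 789, 809 and 842 CPM with DMSO, 803, 823 and 816 with FMK and 657, 741 and 620.1 with OPH. Each OPH library was below the other 6. The log2 fold change was -0.27 ± 0.07 with OPH (edgeR adjusted p = 0.0165) and 0.00 with FMK (95% interval -0.15 to 0.16). The OPH call was lost without OPH library 1, OPH library 3 or DMSO library 3 (edgeR adjusted p up to 0.104) and without all libraries numbered 3.

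Among the glycoproteins, Sparc and Postn fell with OPH. Sparc (ENSMUSG00000018593, chromosome 11, 55394500 to 55423183, minus strand), a collagen-binding protein of matrix assembly, had 8292, 7759 and 8499 CPM with DMSO, 8421, 7672 and 8013 with FMK and 6272, 5907 and 6101 with OPH. The OPH libraries were the lowest, and FMK and DMSO overlapped. Its log2 fold change was -0.43 ± 0.06 with OPH (edgeR adjusted p = 8.38e-05) and -0.03 with FMK (95% interval -0.15 to 0.10).

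Postn (ENSMUSG00000027750, chromosome 3, 54361109 to 54391037, plus strand), a matrix protein of periosteum and healing tissue, fell with both inhibitors. It had 323, 383 and 351 CPM with DMSO, 199, 269 and 244 with FMK and 227, 210.0 and 265 with OPH. Every treated library was below every DMSO library, and FMK and OPH overlapped. The log2 fold change was -0.57 ± 0.11 with FMK (edgeR adjusted p = 0.0018) and -0.59 ± 0.11 with OPH (edgeR adjusted p = 0.00188), in comparisons that share their DMSO libraries.

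Fn1 (ENSMUSG00000026193, chromosome 1, 71585520 to 71653200, minus strand) encodes fibronectin, whose fibrils guide the laying down of collagen I. Its levels were 888, 1037 and 1342 CPM with DMSO, 1329, 1455 and 1658 with FMK and 1001, 1289 and 1307 with OPH. In each group the library numbered 1 had the lowest level and that numbered 3 the highest, and FMK and DMSO overlapped through DMSO library 3. The log2 fold change with FMK was 0.44 ± 0.17 (edgeR adjusted p = 0.117, 8.56e-06 with the block, 0.00722 without DMSO library 3). With OPH it was 0.14 (95% interval -0.26 to 0.53). The low adipocyte markers of DMSO library 3 are given above, and their part in this level was not tested.

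Lox (ENSMUSG00000024529, chromosome 18, 52516067 to 52529867, minus strand) fell with OPH. Its levels were 1156, 1100.0 and 1213 CPM with DMSO, 1259.6, 1319 and 1383 with FMK and 939, 876 and 883 with OPH. The 3 groups did not overlap, with OPH lowest and FMK highest. The log2 fold change was -0.36 ± 0.07 with OPH (edgeR adjusted p = 0.00132) and 0.19 ± 0.07 with FMK (edgeR adjusted p = 0.0583, 0.0315 with the block, 0.0403 without DMSO library 3).

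Bgn (ENSMUSG00000031375, chromosome X, 73483602 to 73495933, plus strand), a small leucine-rich proteoglycan that binds collagen I, rose with FMK. It had 2763, 2872 and 2964 CPM with DMSO, 3566, 3580.0 and 3057 with FMK and 2764, 2964 and 2797 with OPH. The FMK libraries were the highest, with library 3 closest to the rest. Its log2 fold change was 0.25 ± 0.07 with FMK (edgeR adjusted p = 0.0176) and -0.01 with OPH (95% interval -0.16 to 0.14). The FMK call was lost without DMSO library 1 or FMK library 1 or 2 (edgeR adjusted p up to 0.0944) and when libraries were scaled by their totals alone.

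**Figure D2:**
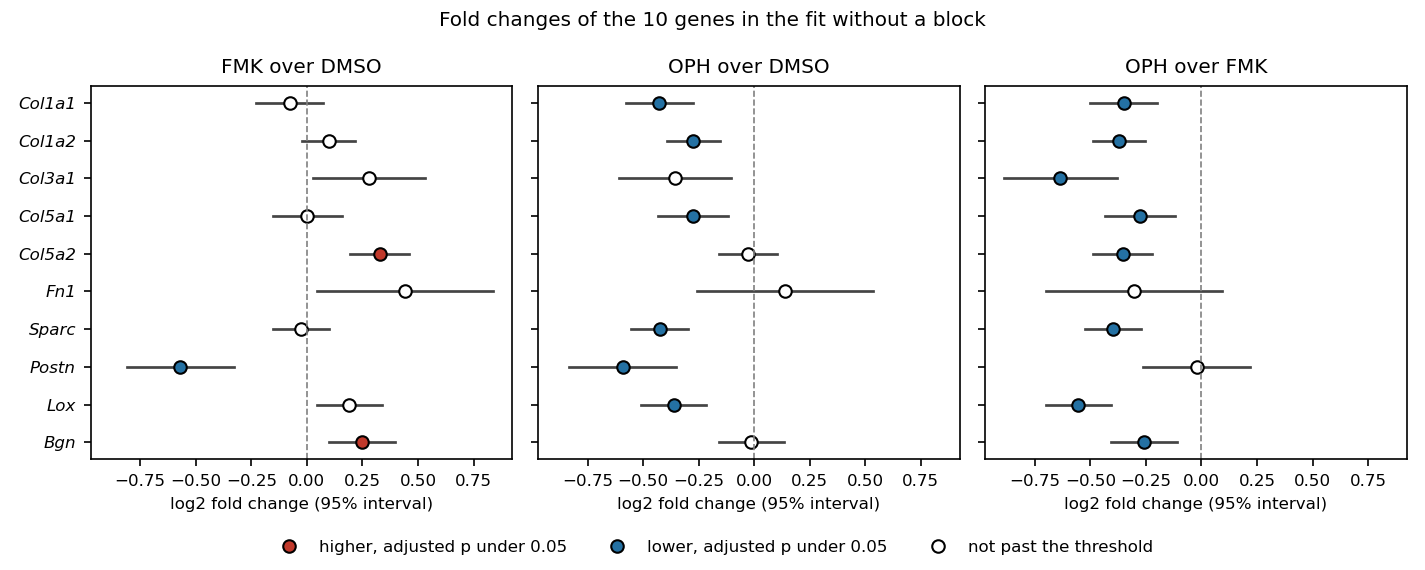
Log2 fold change (horizontal axis) of each of the 10 genes in 3 comparisons, as a point with its 95% interval, filled where the adjusted p was under 0.05. With OPH over DMSO and OPH over FMK the filled points are all on the lower side, 6 and 8 of them.

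Groups of OPH and DMSO did not overlap for 7 of the 10 genes, each with OPH lower. Over all genes 33.7% did not overlap, 16.6% with OPH higher and 17.1% lower. Groups of FMK and DMSO did not overlap for 5, of which 4 were higher and 1 lower with FMK, against 35.5% of all genes (17.4% higher and 18.1% lower). The median log2 fold change of the 10 genes was -0.31 with OPH and 0.14 with FMK, and that of all genes tested -0.0025 and -0.0064. With the block, 5 of 10 were higher with FMK (Col3a1, Col5a2, Fn1, Lox and Bgn) and 1 lower, where 26.8% of all genes were called, 13.4% higher and 13.4% lower. With OPH against DMSO 7 were then lower, where 22.9% of all genes were called, 11.6% higher and 11.3% lower. In the authors' deposited table, made with DESeq2, 4 of the 10 were higher and 1 lower with FMK (17.0% of its genes were called), 7 were lower with OPH against DMSO (14.2%) and 8 against FMK (9.66%).

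The inhibitors, compared directly at the same dose and time as 1 pair of compounds, differed for 8 of the 10 genes, each lower with OPH: Col1a1, Col1a2, Col3a1, Col5a1, Col5a2, Sparc, Lox and Bgn. The groups did not overlap for 9 of 10, each with OPH lower, while 27.1% of all genes did not overlap (13.9% with OPH higher and 13.3% lower). Col3a1 and Lox had the largest differences, -0.63 ± 0.12 (edgeR adjusted p = 0.00627) and -0.55 ± 0.07 (edgeR adjusted p = 8.17e-05). The differences were -0.40 ± 0.06 for Sparc, -0.37 ± 0.06 for Col1a2, -0.35 ± 0.06 for Col5a2 and -0.35 ± 0.07 for Col1a1. Those of Col5a1 (-0.28 ± 0.07) and Bgn (-0.26 ± 0.07) were lost in 5 of 6 fits with a library left out (edgeR adjusted p up to 0.135 and 0.126). Fn1 did not pass (-0.30, 95% interval -0.70 to 0.09, edgeR adjusted p = 0.351, 0.00257 with the block), nor did Postn (-0.02, 95% interval -0.26 to 0.22). With the block 9 of 10 were lower, where 16.1% of all genes were called (7.78% higher and 8.36% lower). Scaling by library totals alone gave all genes tested a median of -0.11 for FMK over DMSO and of 0.12 for OPH over FMK. With that scaling 6 of 10 were lower with OPH than with FMK. The share of all genes called in that fit is not given here, so this count cannot be set against it.

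Ratios between collagen chains were taken within a library, where scaling plays no part. Counts of Col1a1 per count of Col1a2 were 1.145, 1.186 and 1.501 with DMSO, 1.094, 1.106 and 1.181 with FMK and 1.119, 1.153 and 1.160 with OPH, and DMSO library 3 alone stood high. Those of Col5a1 per Col5a2 were 0.758, 0.795 and 0.805 with DMSO, 0.630, 0.622 and 0.630 with FMK and 0.642, 0.734 and 0.611 with OPH. Each treated library was below each DMSO library. The log2 ratio differed from DMSO by -0.32 with FMK and -0.25 with OPH, and each gave p = 0.1 in a two-sided exact permutation test, the smallest that 3 against 3 allows (adjusted p = 0.45 over 9 tests). Col3a1 per Col1a1 was 0.244, 0.245 and 0.197 with DMSO, 0.326, 0.334 and 0.217 with FMK and 0.240, 0.253 and 0.222 with OPH. FMK libraries 1 and 2 stood above the rest and FMK library 3 did not (exact permutation p = 0.3 for FMK against DMSO, adjusted p = 0.54).

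**Figure D3:**
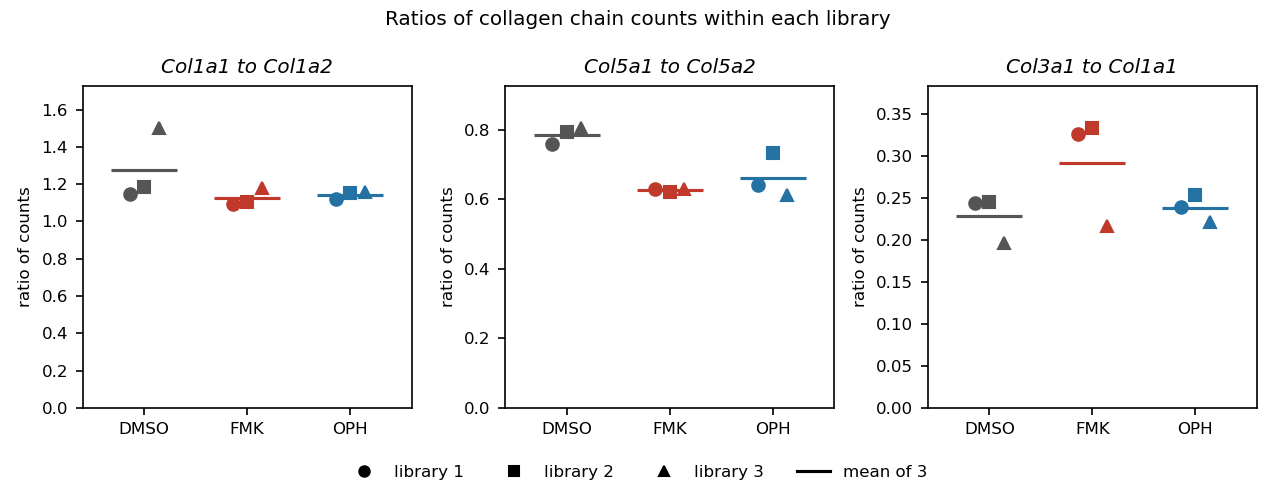
Ratio of the counts of 2 collagen chains in each library (vertical axis, from 0), by treatment, with marker shape for the library number and a line for the mean of 3. Col5a1 per Col5a2 is lower in the 6 treated libraries than in the 3 of DMSO, and Col3a1 per Col1a1 is high in FMK libraries 1 and 2.

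Across the 9 libraries most of the 10 genes varied together. Pearson's r between the log2 level of a gene and the mean of the other 9 was 0.94 for Lox, 0.89 for Col1a2, 0.87 for Col5a1 and Sparc, 0.84 for Col1a1, 0.78 for Col3a1, 0.67 for Col5a2 and 0.62 for Bgn, but 0.27 for Fn1 and 0.08 for Postn. The 5 other genes whose log2 levels followed the mean of the 10 most closely were Prdx4, a peroxidase of the endoplasmic reticulum (r = 0.97), Tcp1, a chaperonin subunit (r = 0.97), Cmc1 (r = 0.96), Calm2, a calmodulin gene (r = 0.96), and Mgp, the matrix Gla protein gene (r = 0.96). The points share treatment and library, and each r is a description over 9 libraries.

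Among enzymes that fold, trim and cross-link collagen, 29 of 30 listed genes were tested. With FMK 7 rose and 5 fell (8 and 8 with the block), with OPH 1 rose and 11 fell (2 and 13 with the block), and the medians of their log2 fold changes were -0.01 and -0.25. Against FMK, 8 were lower with OPH and 1, Pcolce2, was higher (14 and 1 with the block). Of all genes tested, 10.4% rose and 10.1% fell with FMK, and 8.6% rose and 8.11% fell with OPH. With the block those shares were 13.4% and 13.4%, and 11.6% and 11.3%. Between the inhibitors 4.66% were lower and 4.2% higher with OPH (8.36% and 7.78% with the block). These shares serve for the lists and cell-type markers below too. Pcolce2, an enhancer of procollagen trimming, fell from 102 ± 10.3 CPM (SD, n = 3) to 28.6 ± 0.116 under FMK and 41.2 ± 3.76 under OPH, a log2 difference between the inhibitors of 0.53 ± 0.12. Fkbp14, a procollagen-folding isomerase, fell from 106 ± 6.63 CPM to 62.6 ± 7.08 and 65.0 ± 2.28. P4hb, a subunit of the prolyl hydroxylase, fell under OPH from 1050.4 ± 63.2 to 744 ± 51.4 CPM and had 910.4 ± 71.0 CPM under FMK (edgeR adjusted p = 0.075, 0.0171 with the block). Loxl3, a relative of Lox, rose under FMK from 68.8 ± 8.20 to 135 ± 1.57 CPM and had 83.7 ± 11.7 CPM under OPH (edgeR adjusted p = 0.101, 0.0344 with the block).

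Of 36 other matrix genes of fibroblasts, 5 rose and 10 fell with FMK (13 and 15 with the block), and 1 rose and 12 fell with OPH (3 and 21 with the block). Their medians were 0.05 and -0.41. Against FMK, 8 were lower and 3 higher with OPH (18 and 5 with the block). Mfap4 and Col14a1 were among those higher with OPH than with FMK, by 0.65 ± 0.11 (edgeR adjusted p = 0.00114) and 0.52 ± 0.10 (edgeR adjusted p = 0.00447) on the log2 scale. Mfap4 and Mfap2, which encode microfibril-associated proteins, fell with both inhibitors, Mfap4 with a log2 fold change of -1.24 ± 0.11 with FMK and -0.59 ± 0.10 with OPH, and Mfap2 with -0.92 ± 0.10 and -0.71 ± 0.10. Col14a1, a fibril-associated collagen, changed by -1.19 ± 0.10 with FMK and -0.67 ± 0.10 with OPH. Thbs2, a matricellular thrombospondin, had -0.63 ± 0.10 with OPH, which passed, and -0.23 ± 0.10 with FMK, which did not (edgeR adjusted p = 0.108, 0.0491 with the block).

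Of 17 receptor genes for collagen and fibronectin 16 were tested: 5 rose and 1 fell with FMK (5 and 3 with the block), and 2 fell with OPH, with medians of 0.08 and -0.11. The 2 of 16 with OPH did not exceed the share of all genes called, 16.7%. Itgb3, an integrin chain that binds fibronectin and vitronectin, rose with FMK (0.69 ± 0.16) and fell with OPH (-0.71 ± 0.17), and the inhibitors differed by -1.40 ± 0.17 (edgeR adjusted p = 5.09e-05). Itga5, a fibronectin receptor chain, rose under FMK from 18.6 ± 6.41 to 34.3 ± 2.09 CPM and had 20.3 ± 3.78 CPM under OPH. Itga1, a collagen receptor chain, fell with both (-0.68 ± 0.12 and -0.88 ± 0.12).

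Of 14 genes of collagen-degrading enzymes and their inhibitors 12 were tested: 4 rose and 2 fell with FMK (5 and 3 with the block), and 3 rose and 3 fell with OPH, with medians of 0.06 and -0.09. Mmp3, the gene of a stromelysin, rose from 0.458 ± 0.137 CPM to 42.5 ± 15.9 under FMK and 1.73 ± 0.547 under OPH, where the call was lost in at least 1 fit with a library removed (edgeR adjusted p = 0.0275, up to 0.11). Timp1, a protease inhibitor gene, rose under FMK from 117 ± 22.1 to 446 ± 68.2 CPM, while its log2 fold change under OPH was 0.05 ± 0.17. The gelatinase gene Mmp2 rose from 309 ± 52.4 CPM to 476 ± 57.9 under OPH and 411 ± 39.3 under FMK, where the call was likewise lost (edgeR adjusted p = 0.0269, up to 0.105). Timp2, another inhibitor gene, fell under OPH (-0.37 ± 0.07) and had a log2 fold change of 0.00 ± 0.07 under FMK. Ctsk, a collagen-degrading cathepsin, fell with OPH (-0.86 ± 0.16) and with FMK (-0.54 ± 0.15), the latter lost when 1 library was left out (edgeR adjusted p up to 0.107).

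Of 12 genes of transforming growth factor beta signalling and its matrix-inducing targets, 2 rose and 1 fell with FMK (6 and 1 with the block), and 1 rose and 1 fell with OPH (2 and 5 with the block). Without the block these calls were near the shares of all genes called, 20.5% with FMK and 16.7% with OPH. With the block those shares were 26.8% and 22.9%. The medians of the list were 0.30 and -0.19. Tgfb2, a ligand, rose with both, by 0.57 ± 0.08 and 0.64 ± 0.08 on the log2 scale. Ltbp3, which encodes a binding protein of the latent ligand, fell with FMK (-0.28 ± 0.08) and with OPH (-0.35 ± 0.08), and the FMK call was lost in at least 1 fit with a library removed (edgeR adjusted p up to 0.0763).

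**Figure D4:**
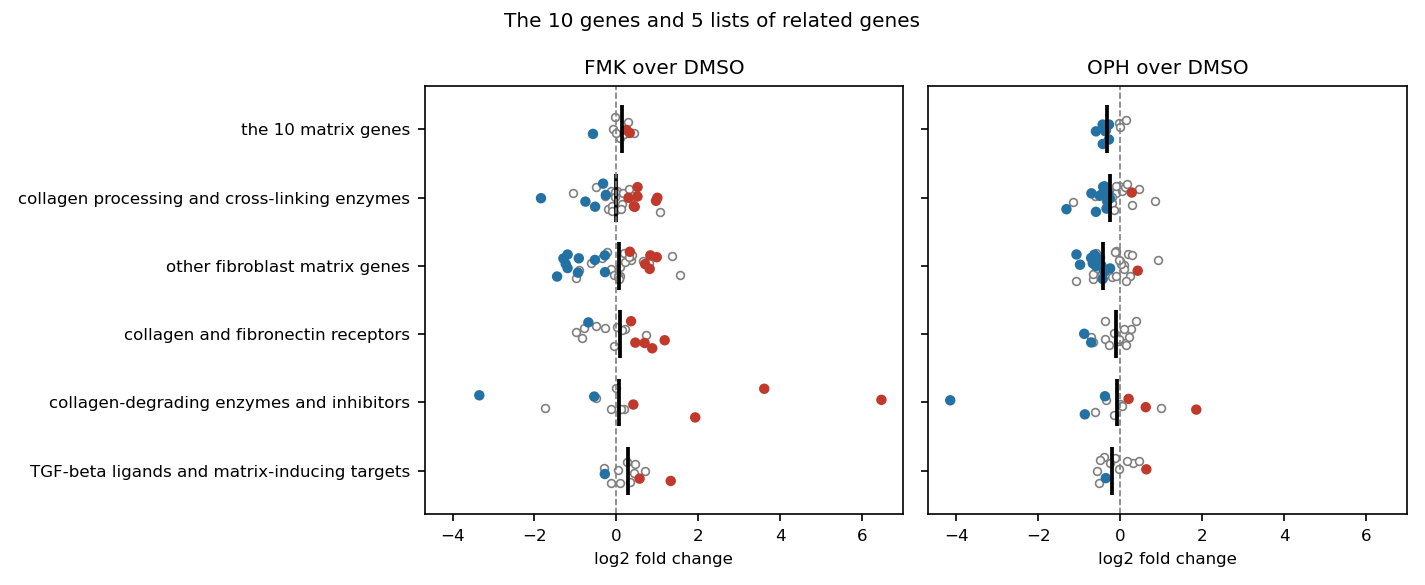
Log2 fold change (horizontal axis) of each tested gene of the 10 and of 5 lists of related genes, with FMK and with OPH over DMSO, filled where the adjusted p was under 0.05 and with a black line at each list's median. With OPH the medians of the enzymes and of other fibroblast matrix genes lie at -0.25 and -0.41, and with FMK at -0.01 and 0.05.

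Markers of cell types moved in the same libraries, and in bulk RNA fewer cells of a type and less RNA per cell cannot be told apart. Of 12 mesenchymal and fibroblast markers 11 were tested: 7 rose with FMK, and 2 rose and 1 fell with OPH (8 rose and 1 fell with FMK, and 3 rose and 5 fell with OPH, with the block). Of all genes, 20.5% were called with FMK and 16.7% with OPH (26.8% and 22.9% with the block). The medians of these markers were 0.43 with FMK and 0.05 with OPH. Their levels summed to 3953 to 4055 CPM in DMSO, 4541 to 5210.2 in FMK and 3285 to 3578 in OPH libraries, of which Vim, a filament gene of mesenchymal cells, held 2732 ± 53.5, 3341 ± 136 and 2218 ± 85.6 CPM. Vim rose with FMK (0.29 ± 0.06) and fell with OPH (-0.30 ± 0.06). The transcription factor genes Prrx1 and Twist1 rose with both, Prrx1 by 0.45 ± 0.08 and 0.26 ± 0.08 and Twist1 by 0.52 ± 0.10 and 0.38 ± 0.10 on the log2 scale. Both OPH calls were lost in at least 1 fit with a library removed (edgeR adjusted p up to 0.103 and 0.0814). Pdgfra, a receptor of fibroblasts, rose under FMK (0.75 ± 0.13) and had 0.05 ± 0.13 under OPH.

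Of 12 macrophage markers 12 fell with each inhibitor, from a summed 1143 to 2248 CPM in DMSO libraries to 27.1 to 42.2 in FMK and 172 to 200.03 in OPH libraries, with none at 0 counts over a group. Of 11 cartilage markers 9 fell with FMK and 5 with OPH (10 and 10 with the block), to sums of 1376 to 1497 and 1347 to 2424 CPM. The 9 adipocyte markers summed to 477 to 2422 CPM in DMSO, 111 to 202 in FMK (Cidec and Lep at 0) and 713 to 2747 in OPH libraries, and 5 of the 8 tested fell with FMK (8 with the block). The 8 smooth muscle markers summed to 1808 to 2802, 1541 to 3763 and 1119 to 1805 CPM in the same order, and the 12 skeletal muscle markers to 233 to 852, 124 to 547 and 252 to 741 CPM (Ckm at 0 with either inhibitor). The 8 endothelial markers summed to 8.41 to 18.9 CPM over the 9 libraries, with 2 or 3 of them at 0 in each group. The part of these markers' cells in the changes of the 10 genes was not tested.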

How the data were processed

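RNA of the 9 cultures was sequenced from 3' ends with a QuantSeq kit, per the labels' protocols. The authors deposited raw counts per gene and library and their own DESeq2 results: log2 fold changes, a standard error (a score) and p-values, per the file headers. The submitters' processing notes name mm10, STAR, cutadapt, DESeq2, MultiQC and FastQC. The counting program, annotation and use of strand were not given in the sources used here, so reads of overlapping or similar genes may have been split.

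The 99 spike-in rows (1 count in all) were left out. Genes were kept by filterByExpr (13255, with 10 of 10 members), scaled by TMM and fitted over 9 libraries with edgeR 4.0.16 (R 4.3.3; robust quasi-likelihood, no block). The steps were also run on simulated counts with changes of 2-fold. The largest change of the 10 genes was 1.55-fold, so that run does not speak for changes of this size. Alternatives were RLE or library-size scaling, a filter of 5 CPM in 3 libraries or none, DESeq2 1.42.0, limma-voom (limma 3.58.1), 2 groups in the fit, the replicate block, leaving out each library, and libraries 1 and 2 alone. Same-numbered libraries of different groups deviated together (r = 0.102 to 0.344 in 9 pairs), so the blocked value is given where it changes a call. The labels do not say what a number shares. Chain ratios were tested by exact permutation (scipy 1.17.1). Positions are from GENCODE M21 (GRCm38, the assembly of mm10), and the start in the deposited table differed for Lox.

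Members and lists were chosen with earlier results of these data known. Named from the lists are genes among the 3 with the smallest p with FMK or with OPH, Col2a1, listed genes at 0 counts, and the 5 genes most correlated with the mean of the 10. Not every gene that the rule names is reported here.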

Additional observations from a re-analysis of the deposited data

How the results depend on the processing

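Over the alternatives run, 5 to 7 of the 10 genes were lower with OPH than with DMSO and 6 to 9 than with FMK, 0 were higher with OPH and 1 was lower with FMK. The count higher with FMK, 2 of 10, was 1 with library-size scaling and 3 with DESeq2, limma-voom or no low-count filter. It was 5 with the replicate block, 4 in the libraries numbered 1 and 2 alone, and 1 to 4 with 1 library left out. Of these alternatives, only the replicate block has its share of all genes called given above. The other counts cannot be set against such a share. The replicate block changed no call of the 10 genes other than those given with the results. For the chain ratios, sign flips of the 3 same-number differences gave an exact p of 0.25 or more. As 0.25 is the smallest p that this test allows, it could not have called a ratio. Of 450 fold changes under alternatives, 394 kept direction and side of the threshold, 21 lost a call, 17 gained one and 18 changed sign, each of the last for a gene that was not called. With library-size scaling the sign changed for Col1a2 (-0.0022) and Col5a1 (-0.098) with FMK and for Postn between OPH and FMK (0.088). In libraries 1 and 2 alone it changed for Sparc with FMK (0.0039) and Bgn with OPH (0.025), and without a low-count filter for Bgn with OPH (0.00119). With 1 library left out, the values with FMK ranged from -0.13 to 0.023 for Col1a1, -0.018 to 0.032 for Col5a1 and -0.063 to 0.013 for Sparc, that of Bgn with OPH from -0.042 to 0.015, and that of Postn between OPH and FMK from -0.13 to 0.074. The log2 ratio of Col5a1 to Col5a2 between OPH and FMK then ranged from -0.00195 to 0.13, and that of Col3a1 to Col1a1 between OPH and DMSO from -0.039 to 0.12. The cause was not tested. The precision rests on 3 cultures a group.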
